A study of Mus musculus with 12 samples.

Results

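The genes described are 52 genes of the lysosome in RAW264.7 (a line of mouse macrophage-like cells), chosen by symbol from a deposited table of 53801 genes. They comprise 11 proteases, 11 glycosidases, 3 sulfatases, 5 lipid hydrolases and their helpers, progranulin, 4 membrane proteins, 1 ion channel, 2 transcription factors and 14 genes of the vacuolar proton pump (V-ATPase). RNA-seq had been carried out on 12 libraries in 4 groups of 3. The first group had received siRNA against Synbindin (the protein of Trappc4, which belongs to TRAPP, a complex that tethers vesicles) and then LPS at 100 ng/ml for 4 h. The second had received control siRNA and the same LPS, the third the Synbindin siRNA without LPS, and the fourth the control siRNA without LPS. Cells of all groups were at passages 3 to 5, per the labels. The labels do not say whether the replicates were separately transfected cultures. The p-values therefore reflect only how far these libraries differ from each other, which may be technical. LPS, lipopolysaccharide, is the cell-wall component of Gram-negative bacteria that macrophages sense through Toll-like receptor 4.

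Lysosomes degrade proteins, glycans, sulfated polysaccharides and lipids with hydrolases that work best in acid. The V-ATPase supplies the acid. Its membrane-embedded V0 sector passes protons through a ring driven by the cytosolic V1 sector, which splits ATP. New hydrolases leave the Golgi tagged with mannose 6-phosphate and are carried to lysosomes by vesicle traffic, while the related transcription factors TFEB and TFE3 switch on many lysosomal genes through the CLEAR element, an E-box in their promoters. In macrophages lysosomes digest engulfed microbes and trim antigens.

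Values are FPKM, fragments scaled by transcript length and by library size, as deposited, and values of single libraries are given in the order of replicate numbers 1 to 3. Depth was estimated at 7.39 to 17.7 M fragments per library. The 12 libraries had 11672 to 12351 genes at 1 FPKM or more, and libraries of the same group correlated across genes with Spearman's rho of 0.958 to 0.973. Trappc4 itself had 5.86, 7.71 and 8.26 FPKM in silenced cells after LPS, against 13.8, 15.7 and 9.45 in control cells after LPS. Without LPS it had 4.35, 7.17 and 6.15 FPKM in silenced cells, against 14.1, 13.1 and 12.5 in control cells. Each silenced library lay below each control library of its time, and the silenced mean was 56.1% of control after LPS and 44.5% without it. A 2-sided exact permutation test gave p = 0.1 at each time, the smallest that 3 against 3 libraries can give, and the adjusted p from limma was 0.120 after LPS and 0.0558 without it. Trappc4 shares 18.9% of its exon bases with Rps25 on the opposite strand, and the strand setting of the counting is not known here. Of 8 macrophage markers, the 7 other than Lyz2 summed to 704 to 796 FPKM in silenced cells after LPS, 738 to 916 in control cells after LPS, 883 to 950 in silenced cells without LPS and 854 to 961 in control cells without LPS. Markers of T cells, B cells, neutrophils, fibroblasts and epithelium summed to at most 0.525 FPKM in any library.

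Together the 52 genes held 0.838% to 1.03% of all FPKM, and their summed level was 3094 ± 69.9 FPKM in silenced cells after LPS, 3032 ± 132 in control cells after LPS, 3306 ± 97.3 in silenced cells without LPS and 3106 ± 195 in control cells without LPS (SD, n = 3 each). Because FPKM is per length, levels can be compared between genes. Cathepsin S (Ctss), a cysteine protease that trims the class II invariant chain, was the highest of them in each group, with a mean over all libraries of 441 FPKM. The membrane glycoprotein Lamp1 followed at 259 FPKM, then the cathepsins Ctsb at 216, Ctsz at 202 and Ctsd at 194 FPKM, and Psap, the precursor of the saposins that present sphingolipids to their hydrolases, at 179.7 FPKM. At the low end lay the calcium channel Mcoln1 at 4.92 FPKM and Tfeb at 2.43 FPKM. Cathepsin H (Ctsh) reached at most 0.259 FPKM in any library, did not pass the filter of 1 FPKM in at least 3 libraries and was not tested, which left 51 genes among 13078 tested. Some ranks changed with LPS. Ctsz ranked 3rd in control cells after LPS and 8th in control cells without LPS, whereas the hyaluronidase Hyal1 ranked 39th and 13th. In bulk RNA, fewer expressing cells and less RNA per cell cannot be told apart.

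**Figure D1:**
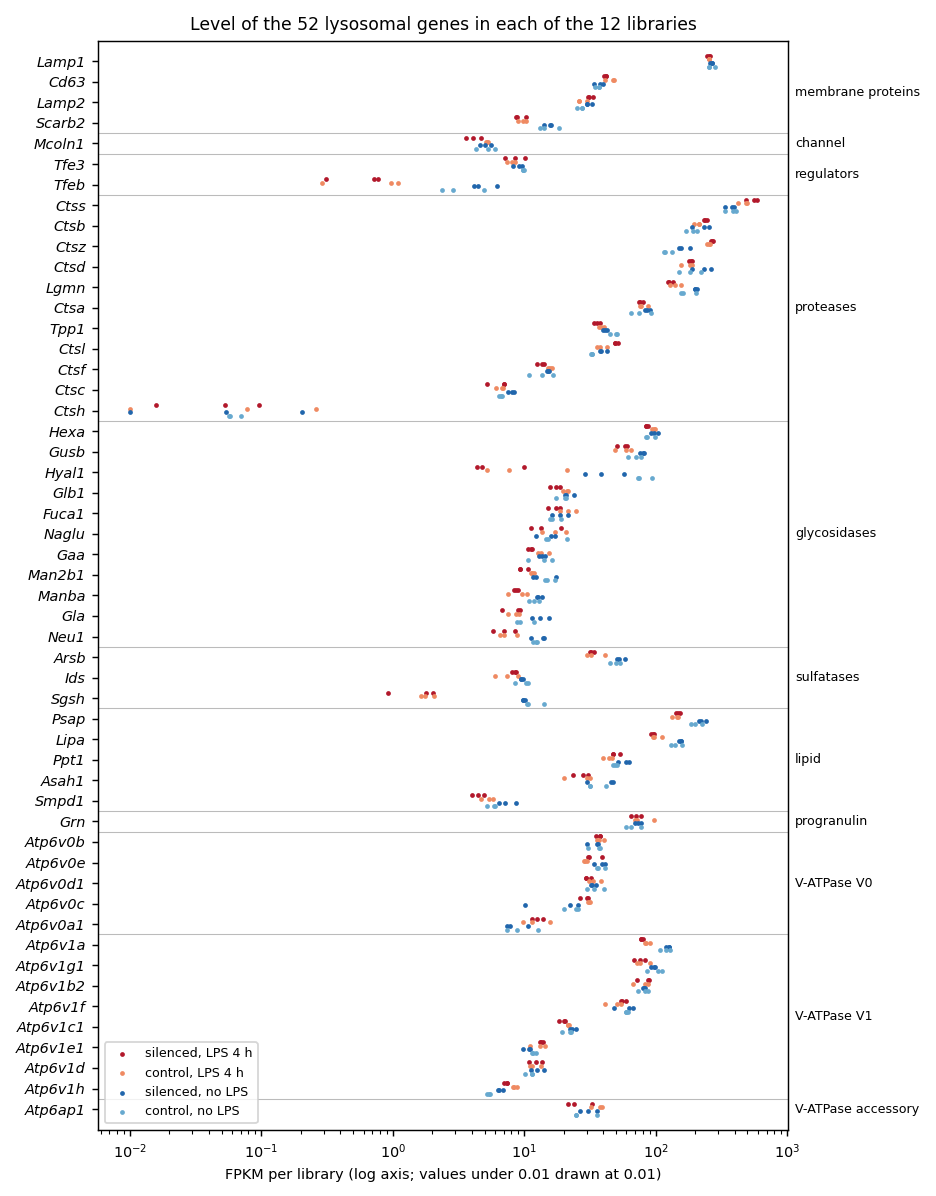
FPKM of the 52 lysosomal genes on a log axis, grouped by role, with 1 point per library and 1 colour for each of the 4 groups (n = 3 libraries each; values under 0.01 are drawn at 0.01). The points of Ctss lie furthest right at group means of 372 to 544 FPKM, those of Ctsh lie below 1 FPKM, and the points of Hyal1, Sgsh and Tfeb are split by LPS.

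The promoters of the genes were read because the E-box of the CLEAR element is the site through which TFEB and TFE3 are known to act. RefSeq starts on GRCm38.p6 gave the 250 bases before each start for 45 of the 52 genes. The genes named only are Asah1, Atp6v1b2, Atp6v1c1, Atp6v1g1, Atp6v1h, Ctsb and Ctsh. On either strand, the E-box CACGTG stood in 14 of the 45 (31.1%), against 6.86% of 27025 genes, where a match before any start of a gene counts. The longer TCACGTG, which contains it, stood in 12 (26.7%, against 3.58%), and the palindrome TCACGTGA, which contains both, in 5 (11.1%, against 0.907%). The 5 with the palindrome were Atp6v1a, Ctsa, Ctsd, Gla and Mcoln1, and TCACGTG alone was found in Atp6v0b, Gaa, Glb1, Lamp1, Lgmn, Naglu and Sgsh. A match of letters is a description and not a bound site. The promoters below show these letters in capitals in genes whose levels differ widely in their response to LPS, with Sgsh and Atp6v1a among those that fell and Lamp1, Ctsd and Mcoln1 among those without a call. In the GENCODE M21 annotation, the 250 bases shown for Atp6v1a lie wholly inside the gene, and those for Ctsd, Mcoln1 and Sgsh lie partly inside. Lamp1 holds the letters 4 times within 62 bases of its start. Each is written 5′ to 3′ on the strand of the gene, with the longest of the 3 motifs that it holds in capitals and any shorter match left in lower case. CACGTGA is TCACGTG read on the other strand.
Lamp1 (chr8:13158911-13159160, plus strand): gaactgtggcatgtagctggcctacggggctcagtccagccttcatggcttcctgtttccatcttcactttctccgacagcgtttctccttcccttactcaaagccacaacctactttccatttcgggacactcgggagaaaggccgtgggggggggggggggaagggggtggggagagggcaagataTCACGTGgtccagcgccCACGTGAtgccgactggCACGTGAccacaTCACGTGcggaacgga
Ctsd (chr7:142387828-142388077, minus strand): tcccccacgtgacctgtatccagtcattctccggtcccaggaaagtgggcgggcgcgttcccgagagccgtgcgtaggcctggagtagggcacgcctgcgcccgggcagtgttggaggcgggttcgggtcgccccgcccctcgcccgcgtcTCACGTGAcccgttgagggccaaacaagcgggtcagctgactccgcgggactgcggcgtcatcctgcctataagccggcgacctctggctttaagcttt
Mcoln1 (chr8:3500269-3500518, plus strand): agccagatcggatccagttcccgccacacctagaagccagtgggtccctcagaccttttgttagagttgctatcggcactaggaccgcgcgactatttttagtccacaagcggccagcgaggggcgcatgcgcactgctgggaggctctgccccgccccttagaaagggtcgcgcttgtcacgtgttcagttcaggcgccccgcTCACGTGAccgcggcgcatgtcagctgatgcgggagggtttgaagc
Atp6v1a (chr16:44139260-44139509, minus strand): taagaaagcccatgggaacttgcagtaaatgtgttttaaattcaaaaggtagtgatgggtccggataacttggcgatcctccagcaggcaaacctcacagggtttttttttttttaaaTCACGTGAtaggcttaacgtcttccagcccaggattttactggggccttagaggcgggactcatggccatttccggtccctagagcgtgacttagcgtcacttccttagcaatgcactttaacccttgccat
Sgsh (chr11:119355511-119355760, minus strand): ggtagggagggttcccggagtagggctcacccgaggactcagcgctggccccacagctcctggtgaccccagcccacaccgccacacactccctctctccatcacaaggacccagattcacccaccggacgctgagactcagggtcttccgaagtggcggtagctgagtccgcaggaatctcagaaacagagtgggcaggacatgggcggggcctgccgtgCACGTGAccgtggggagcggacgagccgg
The 12 genes with TCACGTG had a median log2 fold change with LPS of -0.29 in silenced cells and -0.02 in control cells, against -0.18 and -0.09 in the 33 genes without it that had a promoter and a test. On the deposited scale none of the 12 rose with LPS, while 5 fell in silenced cells (41.7%, against 35.5% of all genes) and 3 in control cells (25.0%, against 32.9%). With median-ratio scaling Lamp1 and Atp6v0b were called higher in both, and Ctsa and Glb1 in control cells. That scaling called 3 of the 12 lower in silenced and 2 in control cells. With quantile normalization none of the 12 were called higher. It called 7 lower in silenced cells (58.3%) and 4 in control cells (33.3%), where 3351 and 3370 of all 13078 genes were lower. On the deposited scale, of the 33 without the letters, 5 rose and 12 fell in silenced cells, and 4 rose and 12 fell in control cells.

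On the deposited scale LPS for 4 h lowered several lysosomal hydrolases and the factor Tfeb in silenced and control cells. It raised the cathepsins Ctsz, Ctsl and Ctss in both, of which only Ctsz was called higher in both under the 3 other scalings too. In silenced cells 25 of the 51 genes passed limma at an adjusted p under 0.05 (49.0%), against 48.5% of all 13078 genes. In control cells 21 passed (41.2%), against 48.2% of all genes. By direction, 5 rose (9.80%) and 20 fell (39.2%) in silenced cells, against 13.0% and 35.5% of all genes. In control cells 5 rose (9.80%) and 16 fell (31.4%), against 15.3% and 32.9% of all genes. The median log2 fold change of the 51 genes was -0.20 in silenced cells and -0.04 in control cells, against -0.21 and -0.17 over all genes. Of the calls, 17 were shared and had the same direction in both, 14 lower and 3 higher, which is 68% of the calls in silenced cells and 81.0% of those in control cells. The shared calls of all genes were not counted, so this overlap is not read as particular to the lysosomal genes. With median-ratio scaling the median of all genes moved up by 0.23 in silenced and 0.19 in control cells, and the calls became 13 higher and 12 lower in silenced cells and 19 higher and 8 lower in control cells. Over all genes this scaling gave 2975 higher and 2824 lower in silenced cells and 3215 higher and 2852 lower in control cells, where the deposited scale gave 1698 and 4639 and 1997 and 4303. The sign changed from negative to positive in 17 genes in silenced and 7 in control cells, and 8 and 14 genes without a call on the deposited scale were called higher. Directions below are on the deposited scale, and genes described as passing in neither are so on that scale. Under all 4 scalings tried, 12 of the 51 genes fell and 3 rose in silenced cells, and 8 fell and 2 rose in control cells. The same count over all genes was not made. The mitochondrially encoded share of FPKM also differed with LPS, at 12.8% to 13.8% in silenced and 12.2% to 13.1% in control cells after LPS, against 15.3% to 16.8% and 17.1% to 18.7% without it, and its part in these results was not tested.

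**Figure D2:**
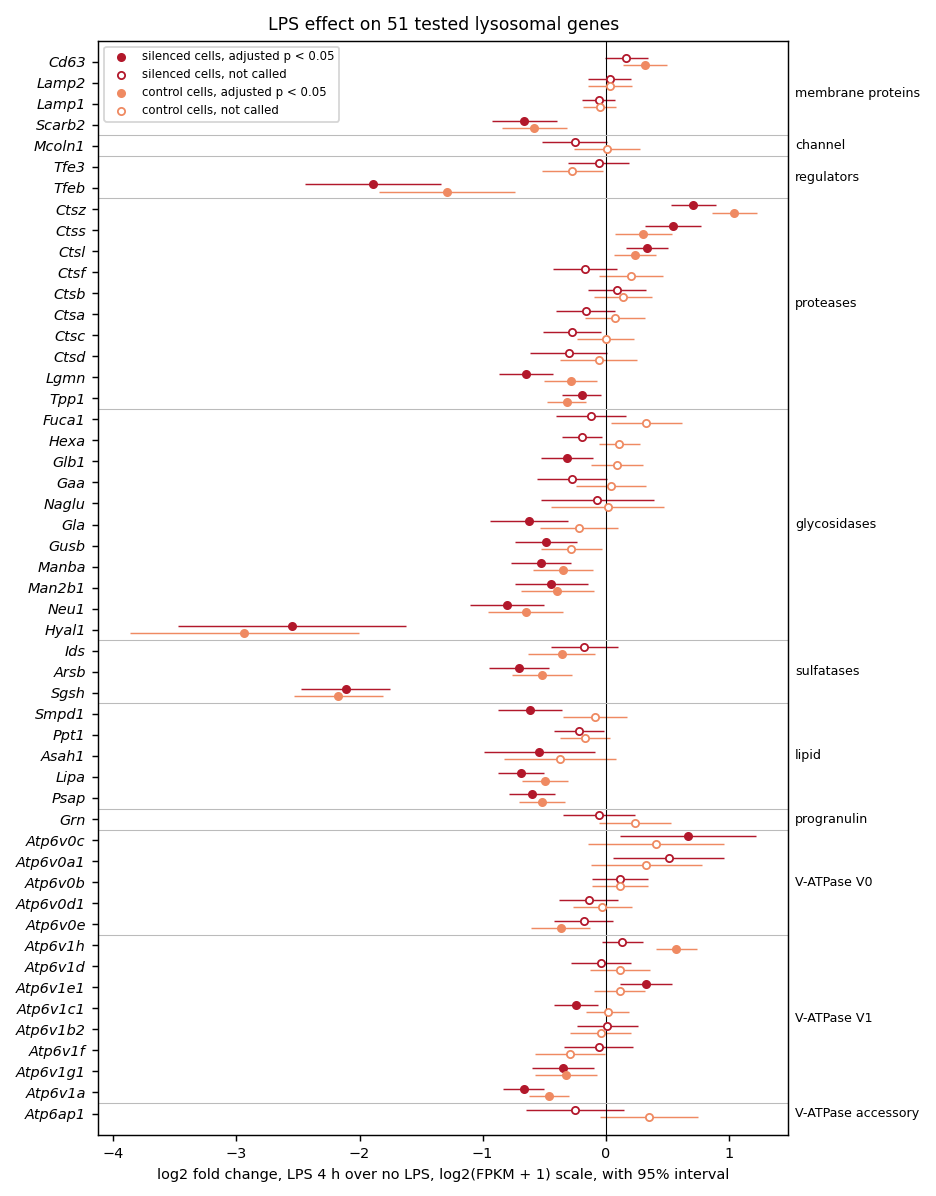
Log2 fold change with LPS (LPS over none, log2(FPKM + 1) scale) of the 51 tested genes in silenced and in control cells, with 95% intervals from limma and filled symbols for adjusted p under 0.05. Hyal1, Sgsh and Tfeb lie furthest to the left in both, Ctsz furthest to the right, and most others lie within 1 of 0.

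Among the 11 glycosidases, which cut sugars from glycoproteins, glycolipids and polysaccharides, 7 fell in silenced cells (63.6%, against 35.5% of all genes) with none rising. In control cells 4 fell (36.4%, against 32.9%) with none rising. With median-ratio scaling 3 fell and none rose in silenced cells (2824 and 2975 of all 13078 genes). With this scaling 2 fell and 3 rose in control cells (2852 and 3215 of all genes). The summed level of the 11 glycosidases was 243 ± 2.62 FPKM in silenced and 276 ± 16.8 in control cells after LPS, against 342 ± 12.4 and 357 ± 16.2 FPKM without LPS (SD, n = 3 each). Hyal1 alone made up 6.40 FPKM of these sums in silenced and 11.3 in control cells after LPS, against 41.6 and 80.4 without LPS. Most of the fall of the sum in control cells thus lay in this 1 gene. Hyal1 (chr9:107576927-107581710 on GRCm38), a hyaluronidase that cuts hyaluronan in acid, had the largest change of the 51 genes in both. In silenced cells it had 4.82, 4.41 and 9.97 FPKM after LPS, against 29.0, 38.2 and 57.7 without LPS. In control cells it had 21.02, 5.21 and 7.63 FPKM after LPS, against 93.6, 73.1 and 74.5 without LPS. Every LPS library lay below every library without LPS, and control replicate 1 was the highest of its group with and without LPS. The log2 fold change was -2.55 ± 0.42 (SE, adjusted p = 0.000416) in silenced cells and -2.94 ± 0.42 (adjusted p = 0.000157) in control cells, by limma. Hyal1 shares 50.8% of its exon bases with Naa80, an acetyltransferase gene on the same strand, which the table lists as Nat6. Nat6 had 3.83 to 6.02 FPKM in the 6 LPS libraries and 9.52 to 23.5 in the others, so the size of the Hyal1 change is uncertain. Neu1, a sialidase that removes terminal sialic acid, had 7.003, 8.53 and 5.84 FPKM after LPS in silenced cells, against 13.8, 14.1 and 11.4 without. In control cells Neu1 had 6.99, 8.78 and 6.57 FPKM after LPS, against 12.6, 11.6 and 12.4 without. The LPS libraries lay below the others in both. The log2 fold change of Neu1 was -0.80 ± 0.14 (adjusted p = 0.000517) in silenced and -0.65 ± 0.14 (adjusted p = 0.00219) in control cells, by limma. The mannosidases Manba (-0.53 in silenced, -0.35 in control cells) and Man2b1 (-0.44 and -0.39) also fell in both. The silenced-cell call of Man2b1 was lost without silenced replicate 3 without LPS or silenced replicate 1 or 2 with LPS (adjusted p from 0.0505 to 0.0572). The calls of Man2b1 did not hold under median-ratio scaling or quantile normalization in either, and in control cells neither did that of Manba. The control-cell call of Man2b1 was lost without any 1 of 5 control libraries, all but replicate 2 without LPS (adjusted p from 0.0522 to 0.107) and that of Manba without control replicate 1 or 2 without LPS or 3 with LPS (0.0507 to 0.0843). In silenced cells alone, Gla, the alpha-galactosidase (-0.62), Gusb, the beta-glucuronidase (-0.49), and Glb1, the beta-galactosidase (-0.31), passed the test, and none of the 3 did so with median-ratio scaling. The call of Glb1 was also lost without silenced replicate 3 without LPS (-0.24, adjusted p = 0.0759, limma) or silenced replicate 2 with LPS (-0.25, adjusted p = 0.0805, limma). Hexa, Naglu, Gaa and Fuca1 passed in neither, at -0.27 to -0.07 in silenced and 0.02 to 0.33 in control cells.

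The 3 sulfatases, which remove sulfate from glycosaminoglycans, all fell in control cells, against 32.9% of all genes. In silenced cells 2 of them fell (66.7%, against 35.5% of all genes). Sgsh (chr11:119343425-119355536), the sulfamidase that acts on heparan sulfate, had 2.02, 1.78 and 0.923 FPKM after LPS in silenced cells, against 10.2, 9.78 and 9.83 without. In control cells Sgsh had 2.07, 1.63 and 1.76 FPKM after LPS, against 10.48, 10.7 and 14.2 without. The groups with and without LPS lay far apart, at 15.8% of the mean without LPS in silenced and 15.4% in control cells. The log2 fold change of Sgsh was -2.11 ± 0.17 (adjusted p = 1.38e-06) in silenced and -2.17 ± 0.17 (adjusted p = 1.28e-06) in control cells, by limma. Arsb, the arylsulfatase that acts on dermatan and chondroitin sulfate, had 32.5, 31.6 and 34.0 FPKM after LPS in silenced cells, against 51.2, 52.6 and 58.2 without. In control cells Arsb had 30.3, 32.3 and 40.9 FPKM after LPS, against 49.8, 45.0 and 54.0 without. Neither pair of groups overlapped. Arsb fell by 0.71 (adjusted p = 0.000271, limma) in silenced and by 0.52 (adjusted p = 0.00237, limma) in control cells on the log2 scale, and the control-cell call was lost with median-ratio scaling. Ids, the iduronate sulfatase, was called in control cells (-0.36, adjusted p = 0.0331, limma), a call lost without any 1 of 4 control libraries (adjusted p from 0.0694 to 0.128) and with median-ratio scaling or quantile normalization, and not in silenced cells (-0.17).

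Of the 5 genes for lipid hydrolases and their helpers, 4 fell in silenced cells (80%, against 35.5% of all genes). In control cells 2 fell (40%, against 32.9%). The summed level of the 5 was 325 ± 11.2 FPKM in silenced and 319 ± 14.8 in control cells after LPS, against 486 ± 18.8 and 437 ± 43.3 FPKM without LPS (SD, n = 3 each). Lipa, the acid lipase that frees cholesterol and fatty acids from lipoprotein lipids, had 92.6, 96.0 and 97.7 FPKM after LPS in silenced cells, against 156, 155 and 152 without. In control cells Lipa had 97.0, 95.1 and 112 FPKM after LPS, against 140.0, 131 and 159 without. The LPS libraries lay below the others in both. Lipa fell by 0.69 (adjusted p = 4.84e-05, limma) in silenced and by 0.50 (adjusted p = 0.000538, limma) in control cells on the log2 scale. Psap fell by 0.60 in silenced and 0.52 in control cells on the log2 scale. Asah1, the acid ceramidase, passed in silenced cells at -0.54 with an adjusted p of 0.0493 from limma. That call was lost without any 1 of 8 libraries (adjusted p from 0.053 to 0.161) and with median-ratio scaling. Ppt1, a palmitoyl-protein thioesterase, passed in neither, at -0.22 in silenced and -0.17 in control cells. Smpd1, the acid sphingomyelinase, is described with the silencing results.

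The 11 proteases were the most abundant role and had members moving in both directions. Their summed level was 1547 ± 48.5 FPKM in silenced and 1430 ± 93.1 in control cells after LPS, against 1384 ± 103 and 1231 ± 75.5 FPKM without LPS (SD, n = 3 each). Without Ctss and Ctsz the sum did not rise. It was then 735 ± 8.22 and 707 ± 48.2 FPKM after LPS, against 848 ± 63.6 and 728 ± 94.3 without LPS. Of the 10 proteases tested, 3 rose (30%) and 2 fell (20%) in silenced cells and likewise in control cells. Over all genes 13.0% rose and 35.5% fell in silenced cells, and 15.3% rose and 32.9% fell in control cells. With median-ratio scaling 4 of the 10 rose and 1 fell in silenced cells (2975 and 2824 of all 13078 genes). With this scaling 6 rose and none fell in control cells (3215 and 2852 of all genes). Cathepsin Z (Ctsz, chr2:174427493-174439039), a carboxypeptidase, had 274, 262 and 269.7 FPKM after LPS in silenced cells, against 184, 157 and 152 without. In control cells Ctsz had 259, 245 and 256 FPKM after LPS, against 116, 118.4 and 133 without. All LPS libraries exceeded all others. The log2 fold change of Ctsz was 0.71 ± 0.08 (adjusted p = 3.27e-05) in silenced and 1.04 ± 0.08 (adjusted p = 1.85e-06) in control cells, by limma. Cathepsin L (Ctsl, chr13:64359337-64370890), a broad cysteine endopeptidase, had 49.1, 48.7 and 51.97 FPKM after LPS in silenced cells, against 38.2, 42.3 and 37.8 without. In control cells Ctsl had 38.0, 36.1 and 42.4 FPKM after LPS, against 32.8, 32.4 and 33.0 without. The groups did not overlap in either. Ctsl rose by 0.33 (adjusted p = 0.00376, limma) in silenced and by 0.24 (adjusted p = 0.0251, limma) in control cells on the log2 scale. The control-cell call of Ctsl was lost without control replicate 1 (adjusted p = 0.0583) or replicate 2 (0.0628) without LPS or control replicate 3 with LPS (0.0933), and with a common sum of FPKM or quantile normalization. Ctss had 483, 559.6 and 588 FPKM after LPS in silenced cells, against 382, 392 and 340.1 without. In control cells Ctss had 498, 423 and 489 FPKM after LPS, against 412, 391 and 338 without. No LPS library lay below a library without LPS. Ctss rose by 0.55 (adjusted p = 0.00116, limma) in silenced and by 0.30 (adjusted p = 0.0318, limma) in control cells on the log2 scale, but with quantile normalization its control-cell value was -0.08 and neither call held. The control-cell call of Ctss was also lost without any 1 of control replicates 2 and 3 without LPS and control replicates 1 and 3 with LPS (adjusted p from 0.051 to 0.12). Lgmn, the asparaginyl endopeptidase legumain, fell in both, by 0.65 in silenced and by 0.29 in control cells on the log2 scale, and its control-cell call was lost with median-ratio scaling and without any 1 of 3 control libraries (adjusted p from 0.0722 to 0.12). Tpp1, a tripeptidyl peptidase, was called lower in both, at -0.20 in silenced cells (0.08 with median-ratio scaling) and -0.32 in control cells, where median-ratio scaling ended the call. Its silenced-cell call was lost without any 1 of 8 libraries (adjusted p from 0.0509 to 0.148). Cathepsin D (Ctsd), the main aspartic protease, had 189, 184 and 179 FPKM after LPS in silenced cells, against 264, 234 and 189.7 without. In control cells Ctsd had 183, 157 and 188 FPKM after LPS, against 182, 152 and 221 without. The control groups overlapped, while the silenced libraries with LPS lay just under those without. Ctsd shares 34.4% of its exon bases with Gm49369 on the same strand, which the table lists at 0. Ctsd was not called in silenced cells (-0.30, adjusted p = 0.104, limma) or in control cells (-0.06, adjusted p = 0.770, limma), where median-ratio scaling gave 0.18. Without silenced replicate 3 without LPS, the silenced-cell value was -0.43 (adjusted p = 0.0286, limma), and with quantile normalization it was -0.55 (adjusted p = 0.00931, limma). Ctsa, Ctsb, Ctsc and Ctsf passed in neither, at -0.27 to 0.09 in silenced and -0.0012 to 0.20 in control cells.

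On the deposited scale the 14 listed genes of the proton pump had few and mostly small changes. In silenced cells 2 rose (14.3%, against 13.0% of all genes) and 3 fell (21.4%, against 35.5%). In control cells 1 rose (7.14%, against 15.3%) and 3 fell (21.4%, against 32.9%). With median-ratio scaling 6 rose and 1 fell in silenced cells and likewise in control cells, so the balance of directions turns with the scaling. Over all 13078 genes this scaling gave 2975 higher and 2824 lower in silenced and 3215 higher and 2852 lower in control cells. The 8 genes of the V1 sector summed to 346 ± 4.67 FPKM in silenced and 350 ± 11.7 in control cells after LPS, against 415 ± 14.2 and 411 ± 23.1 FPKM without LPS (SD, n = 3 each). Those of the V0 sector summed to 143 ± 3.16 and 145 ± 7.36 FPKM after LPS, against 134 ± 6.34 and 141 ± 14.7 FPKM without. Atp6v1a, the catalytic subunit that splits ATP, had 77.0, 80.6 and 77.1 FPKM after LPS in silenced cells, against 119.6, 126.97 and 127.5 without. In control cells Atp6v1a had 82.4, 84.6 and 91.2 FPKM after LPS, against 120.4, 108 and 128.4 without. The LPS libraries lay below the others in both. The log2 fold change of Atp6v1a was -0.67 ± 0.08 (adjusted p = 2.48e-05) in silenced and -0.46 ± 0.08 (adjusted p = 0.000396) in control cells, by limma. Atp6v1b2, its partner subunit in the head of V1, had 0.01 in silenced and -0.04 in control cells and passed in neither. Atp6v1e1, a stalk subunit, had 13.2, 13.5 and 13.9 FPKM after LPS in silenced cells, against 11.1, 10.8 and 9.75 without. In control cells Atp6v1e1 had 14.5, 11.1 and 13.2 FPKM after LPS, against 11.7, 12.3 and 11.5 without. The groups overlapped in control cells and not in silenced cells. Atp6v1e1 rose by 0.33 (adjusted p = 0.014, limma) in silenced cells on the log2 scale, a call lost without silenced replicate 3 without LPS (adjusted p = 0.0539), and was not called in control cells (0.11). Atp6v0c, which forms most of the proton-carrying ring, had 30.3, 30.9 and 26.8 FPKM after LPS in silenced cells, against 10.1, 25.5 and 22.4 without. In control cells Atp6v0c had 31.3, 30.8 and 31.5 FPKM after LPS, against 24.6, 19.9 and 25.7 without. All LPS libraries exceeded the others, and silenced replicate 1 without LPS stood well below the rest. Atp6v0c was called in silenced cells (0.67, adjusted p = 0.0455, limma) and not in control cells (0.41, adjusted p = 0.206, limma). Without silenced replicate 1 without LPS the value in silenced cells was 0.28 (adjusted p = 0.0756, limma), and the call was lost without any 1 of 10 of the 12 libraries (adjusted p up to 0.107). Atp6v1g1, another stalk subunit, was called lower in both (-0.35 in silenced, -0.33 in control cells). Each of its calls was lost without any 1 of 4 libraries (adjusted p from 0.0603 to 0.101 in silenced and from 0.0991 to 0.13 in control cells) and with median-ratio scaling. Atp6v1c1 was called in silenced cells (-0.24, and 0.03 without a call with median-ratio scaling), a call lost without any 1 of 4 silenced libraries (adjusted p from 0.0522 to 0.0942). Atp6v0e was called in control cells (-0.37), a call lost without control replicate 1 without LPS (adjusted p = 0.0654) and with median-ratio scaling. The other 7 pump genes, Atp6v1b2 among them, passed in neither, at -0.25 to 0.51 in silenced and -0.29 to 0.35 in control cells.

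**Figure D3:**
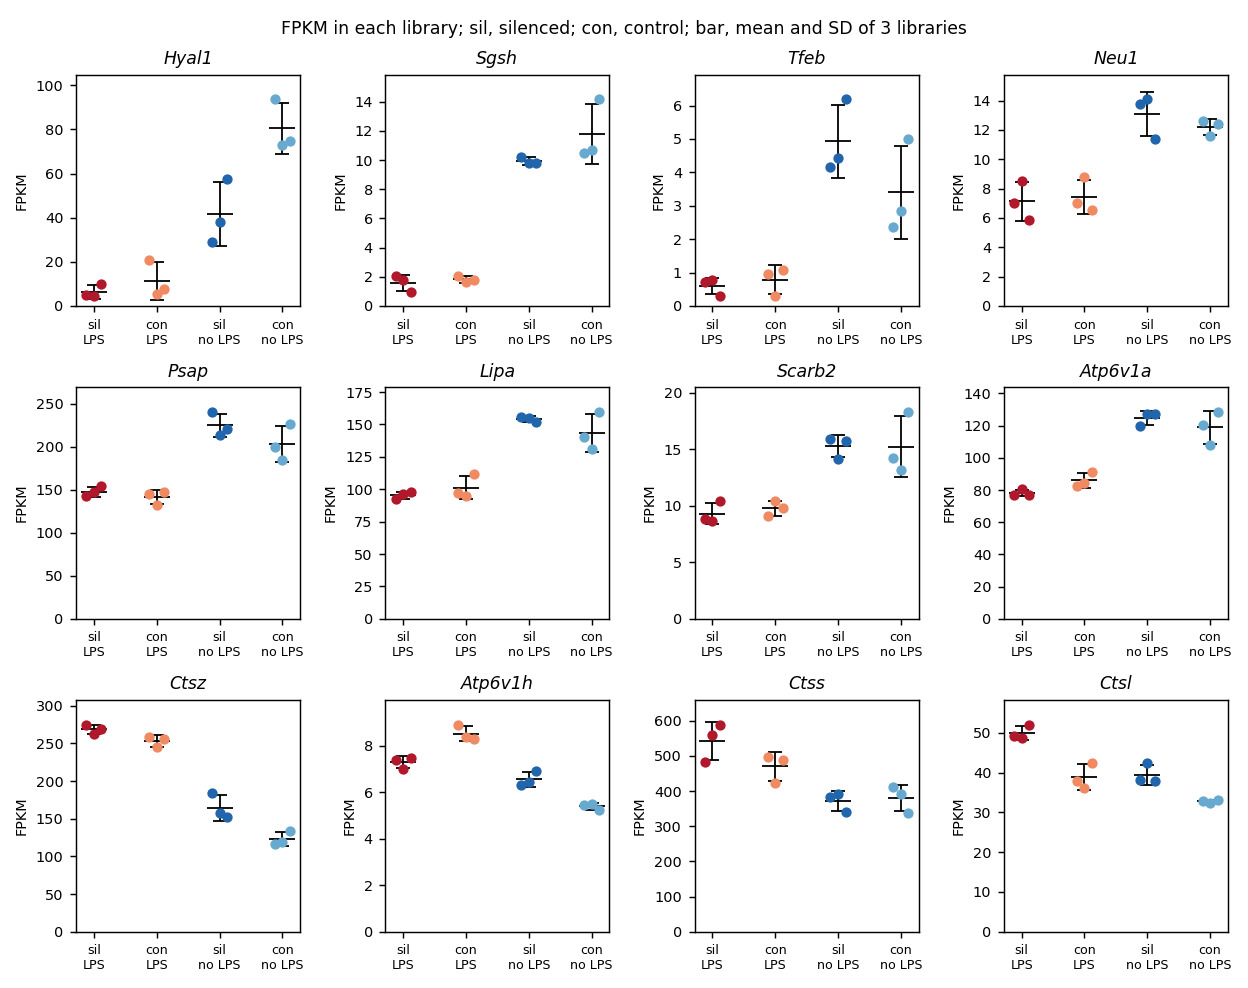
FPKM of 12 of the lysosomal genes in each library, 3 points per group with the group mean and SD as bars, in the order silenced with LPS, control with LPS, silenced without LPS and control without LPS. The 6 LPS points of Hyal1, Sgsh, Tfeb and Neu1 lie below the 6 others, and those of Ctsz lie above them.

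The membrane proteins, the channel and the factors varied by gene. Lamp1, the most abundant glycoprotein of the lysosomal membrane here, had 247, 255 and 260.2 FPKM after LPS in silenced cells, against 257, 269 and 267 without. In control cells Lamp1 had 254 FPKM in each of the 3 LPS libraries, against 255, 253 and 283 without. The groups overlapped in both. Its log2 fold change was -0.06 (95% interval -0.20 to 0.08) in silenced and -0.05 (-0.19 to 0.09) in control cells on the deposited scale, and with median-ratio scaling it was 0.22 and 0.19, both called higher, whereas with quantile normalization it was -0.28 and -0.32, both called lower. Lamp2, a related glycoprotein, was near 0 in both on the deposited scale (0.03 each), and with median-ratio scaling it was 0.30 in silenced and 0.26 in control cells, both called higher. Scarb2, the receptor that carries beta-glucocerebrosidase to lysosomes, had 8.86, 8.66 and 10.4 FPKM after LPS in silenced cells, against 15.9, 14.2 and 15.8 without. In control cells Scarb2 had 9.06, 10.4 and 9.83 FPKM after LPS, against 14.2, 13.2 and 18.3 without. The LPS libraries lay below the others. Scarb2 fell by 0.66 (adjusted p = 0.00074, limma) in silenced and by 0.58 (adjusted p = 0.00188, limma) in control cells on the log2 scale. Cd63, a tetraspanin of late endosomes and exosomes, had 40.8, 42.3 and 41.9 FPKM after LPS in silenced cells, against 39.6, 37.8 and 33.8 without. In control cells Cd63 had 47.4, 48.1 and 41.6 FPKM after LPS, against 37.1, 37.0 and 34.9 without. The groups did not overlap in either. Cd63 rose in control cells by 0.32 (adjusted p = 0.00647, limma) on the log2 scale, a call lost with quantile normalization, and was not called in silenced cells (0.17, adjusted p = 0.109, limma). Tfeb (chr17:47737030-47792419) had 0.716, 0.768 and 0.310 FPKM after LPS in silenced cells, against 4.17, 4.44 and 6.19 without. In control cells Tfeb had 0.967, 0.290 and 1.09 FPKM after LPS, against 2.35, 2.85 and 4.98 without. All 6 LPS libraries lay below all 6 others. Tfeb fell by 1.89 (adjusted p = 7.97e-05, limma) in silenced and by 1.29 (adjusted p = 0.0013, limma) in control cells on the log2(FPKM + 1) scale. At such low levels the added 1 makes the change look smaller. The mean after LPS was 12.1% of that without in silenced and 23.0% in control cells. Tfe3, its relative, had 10.2, 8.55 and 7.21 FPKM after LPS in silenced cells, against 8.17, 9.18 and 9.65 without. In control cells Tfe3 had 8.57, 8.11 and 7.37 FPKM after LPS, against 9.87, 9.78 and 9.95 without. The silenced groups overlapped and the control groups did not. Tfe3 was not called in silenced cells (-0.06, and 0.19 and 0.18 with median-ratio scaling and quantile normalization) or in control cells (-0.27, adjusted p = 0.0689, limma). Without silenced replicate 1 or 3 with LPS, which share in the estimate of the spread, its control-cell adjusted p was 0.0379 or 0.0367 by limma. Mcoln1, a calcium channel of the lysosomal membrane, had 4.08, 3.60 and 4.69 FPKM after LPS in silenced cells, against 5.06, 4.58 and 5.64 without. In control cells Mcoln1 had 5.29, 5.13 and 5.25 FPKM after LPS, against 5.32, 4.34 and 6.01 without. Both pairs overlapped. Mcoln1 had -0.25 (0.04 with quantile normalization) in silenced and 0.01 (-0.02 with a common sum of FPKM) in control cells and was called in neither. However, Mcoln1 was called lower in silenced cells with the roughly estimated depth as a covariate (-0.35, adjusted p = 0.0363, limma) and also with a replicate block. Grn, progranulin, which is cut into granulins in lysosomes, passed in neither (-0.05 in silenced and 0.24 in control cells).

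**Figure D4:**
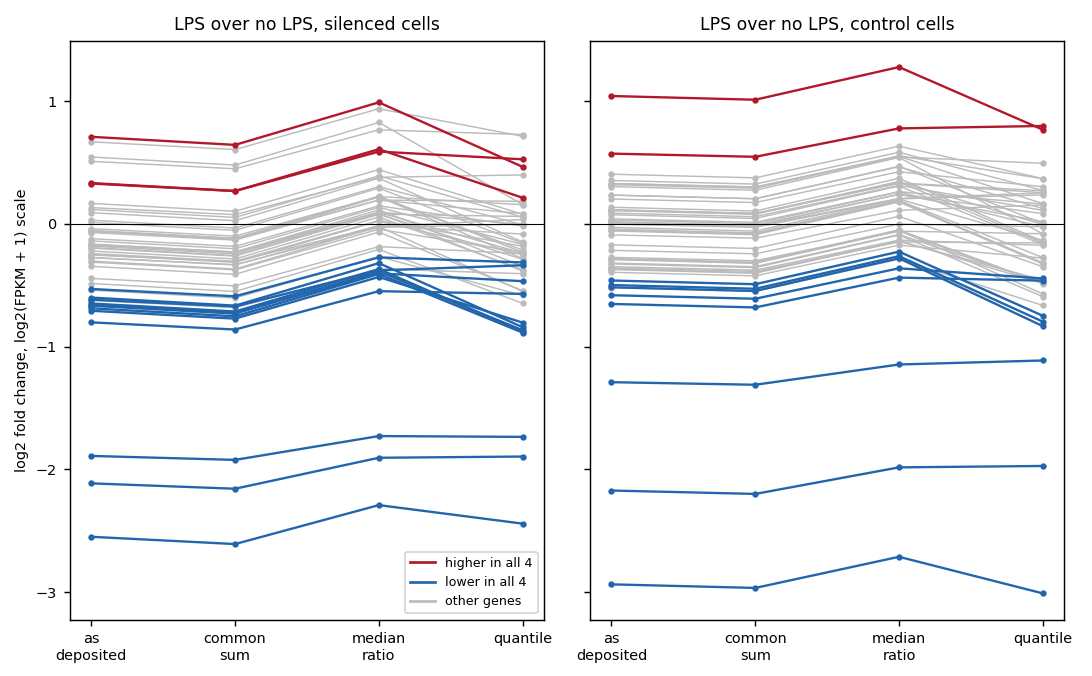
Log2 fold change with LPS of each of the 51 tested genes in silenced and control cells on the deposited scale and under 3 other scalings, joined by a line per gene, in blue where the gene was called lower and red where it was called higher under all 4 and in grey otherwise (silenced cells left, control cells right). Blue marks 12 genes in silenced and 8 in control cells and red 3 and 2, and many grey lines cross 0 at median-ratio scaling.

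None of the 51 genes passed the threshold with silencing of Synbindin. After LPS, 0 passed limma at an adjusted p under 0.05, against 0.719% of all genes, and 9 had an unadjusted p under 0.05 (17.6%, against 13.0% of all genes). Without LPS, 0 passed, against 0.214% of all genes, and 12 had an unadjusted p under 0.05 (23.5%, against 11.97% of all genes). The median log2 fold change was -0.07 after LPS (17 positive and 34 negative) and 0.11 without LPS (35 positive and 16 negative), against -0.03 and 0.01 over all genes. Of all genes, 55.3% were negative after LPS and 48.2% without LPS. The 95% interval lay wholly within 1 on the log2 scale either way for 50 genes after LPS and for 49 without, and within 0.5 for 39 at each time. The interval was widest for Hyal1, at -1.52 to 0.34 after LPS and -1.91 to -0.05 without. In 15 genes (29.4%) after LPS all 3 silenced libraries lay above or all below the 3 control libraries, against 18.9% of all genes, with 6 higher and 9 lower. Without LPS there were 12 (23.5%), against 18.2% of all genes, with 7 higher and 5 lower. Lamp2, Ctsl, Ctsz and Ppt1 were higher in this sense at both times. The marker Lyz2, which encodes the lysozyme of macrophage lysosomes and is not among the 52, was 1097 ± 229 FPKM in silenced and 463 ± 40.9 in control cells after LPS, and 1214 ± 222 and 554 ± 41.1 FPKM without LPS (SD, n = 3 each). Lyz2 was called higher with silencing at both times (adjusted p = 0.0121 after LPS and 0.0283 without, limma). With only the groups compared in the fit, 0 of 13078 genes passed after LPS, so its call after LPS was lost. The other alternatives were not read for Lyz2.

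**Figure D5:**
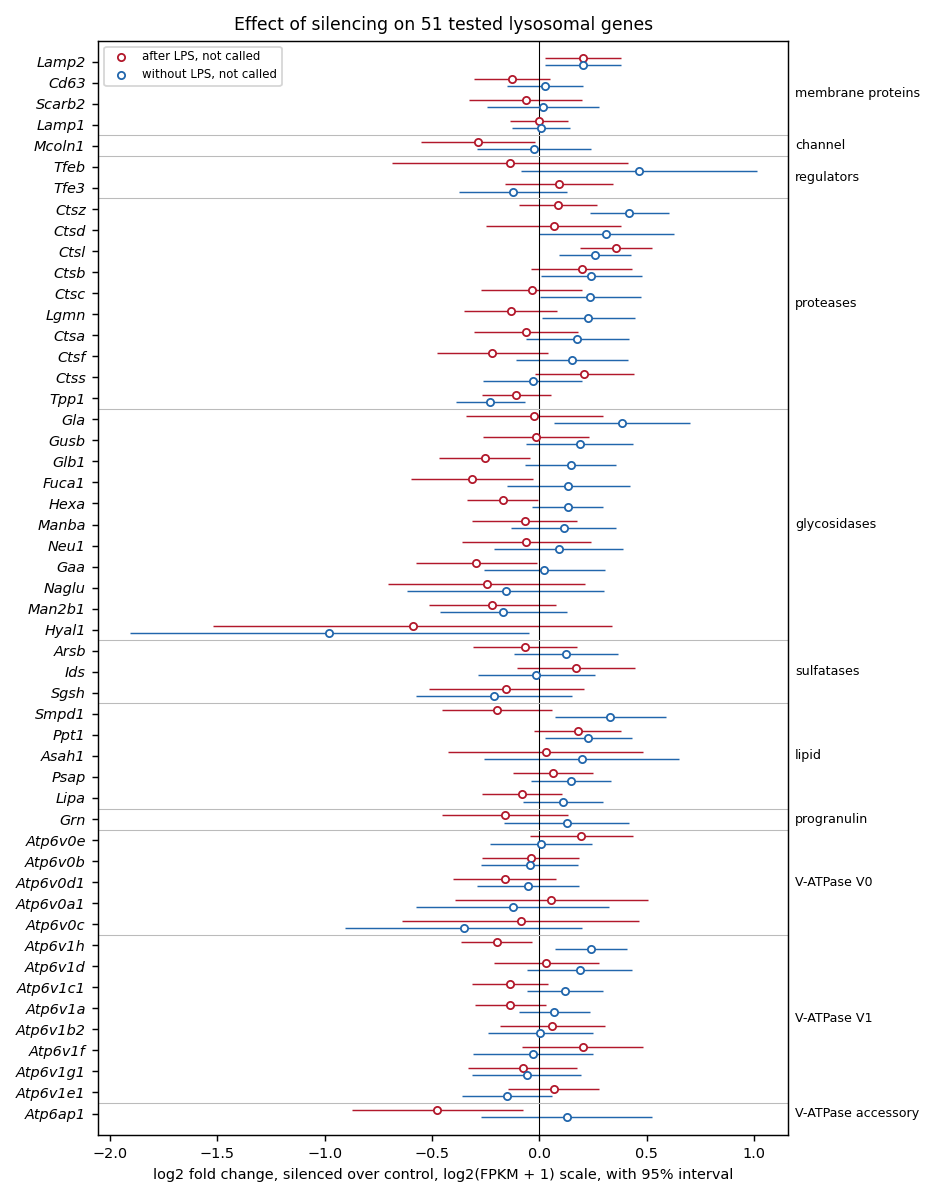
Log2 fold change with silencing (silenced over control, log2(FPKM + 1) scale) of the 51 tested genes after LPS and without LPS, with 95% intervals from limma. All symbols are open, since no adjusted p is under 0.05, and the values run from -0.59 to 0.36 after LPS and from -0.98 to 0.46 without LPS.

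Ctsl had the smallest p after LPS. Its libraries are given above, with silenced cells at 49.9 ± 1.77 FPKM and control cells at 38.8 ± 3.24 after LPS, and 39.5 ± 2.503 and 32.8 ± 0.316 FPKM without LPS (SD, n = 3 each). The silenced libraries exceeded the control libraries at both times. Its log2 fold change with silencing was 0.36 ± 0.08 (adjusted p = 0.0702, limma) after LPS and 0.26 ± 0.08 (adjusted p = 0.234, limma) without. After LPS it passed the threshold without control replicate 3 with LPS (0.42, adjusted p = 0.0431, limma) and when only genes with a mean of at least 5 FPKM were tested (adjusted p = 0.0496, limma). Ctsz had the smallest p without LPS. It was 269 ± 6.19 FPKM in silenced and 253 ± 7.33 in control cells after LPS, and 164 ± 17.4 and 122.6 ± 9.44 FPKM without LPS (SD, n = 3 each). Its log2 fold change with silencing was 0.09 ± 0.08 (adjusted p = 0.727, limma) after LPS and 0.42 ± 0.08 (adjusted p = 0.0801, limma) without, and it passed the threshold in none of the other fits. All 11 glycosidases had negative values with silencing after LPS, where 55.3% of all genes did. These values ran from -0.59 to -0.02, with a median of -0.22 and no call. With median-ratio scaling 2 of the 11 were positive, and with quantile normalization 1 was. Without LPS, 8 of the 11 were positive. Glb1 had the second smallest p after LPS, with 18.7, 15.9 and 17.6 FPKM in silenced cells, against 21.4, 19.8 and 21.6 in control cells. Without LPS Glb1 had 20.8, 20.6 and 24.1 FPKM in silenced cells, against 17.6, 20.9 and 20.5 in control cells. The groups lay apart after LPS and overlapped without it, and the log2 fold change was -0.25 (adjusted p = 0.283, limma) after LPS and 0.14 (adjusted p = 0.584, limma) without. Glb1 shares 5.49% of its exon bases with Tmppe on the same strand. Whether the higher Lyz2 of silenced cells has a part in these values was not tested.

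The difference between the LPS effects of silenced and control cells, the interaction, was called for 0 of the 51 genes by limma, against 0.0612% of all genes, and 10 had an unadjusted p under 0.05 (19.6%, against 11.3% of all genes). The interaction was negative in 37 of the 51 genes, where 54.8% of all genes were negative, with a median of -0.15 against -0.03 over all genes. The smallest p belonged to Atp6v1h (chr1:5070018-5162529), the subunit that couples V1 to V0. It had 7.41, 6.99 and 7.47 FPKM in silenced and 8.90, 8.39 and 8.29 in control cells after LPS. Without LPS Atp6v1h had 6.29, 6.46 and 6.93 FPKM in silenced and 5.45, 5.52 and 5.23 in control cells. Silenced libraries lay below control libraries after LPS and above them without LPS. LPS raised Atp6v1h in control cells (0.57, adjusted p = 8.62e-05, limma) and the value in silenced cells was 0.13 (adjusted p = 0.173, limma), with a difference of -0.44 (95% interval -0.68 to -0.20, adjusted p = 0.214, limma). Smpd1 had the second smallest p. It had 4.47, 4.95 and 4.04 FPKM in silenced and 4.70, 5.42 and 5.76 in control cells after LPS. Without LPS Smpd1 had 7.18, 6.49 and 8.66 FPKM in silenced and 5.198, 5.86 and 6.004 in control cells. Silenced and control libraries overlapped after LPS, and without LPS the silenced ones were higher. LPS lowered Smpd1 in silenced cells (-0.62, adjusted p = 0.00108, limma) and the value in control cells was -0.09 (adjusted p = 0.562, limma; 0.11 with median-ratio scaling and 0.15 with quantile normalization), with a difference of -0.53 (95% interval -0.89 to -0.16, adjusted p = 0.2997, limma). Neither difference passed the threshold, so the genes called in silenced or control cells alone were not shown to respond differently.

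Of 60 other genes of the lysosome, 52 were tested. With silencing 2 passed after LPS, both lower (3.85%, against 0.719% of all genes). Dnase2a, which digests engulfed DNA, had 19.5, 20.1 and 20.2 FPKM in silenced cells after LPS, against 27.7, 27.5 and 28.5 in control cells after LPS. The groups lay apart, with a log2 fold change of -0.47 ± 0.08 (adjusted p = 0.0291, limma). Acp5, the tartrate-resistant acid phosphatase, had 28.0, 31.2 and 31.0 FPKM in silenced cells after LPS, against 53.4, 46.0 and 40.5 in control cells after LPS. These groups lay apart too, with -0.61 ± 0.10 (adjusted p = 0.0307, limma). Of the 12 fits that left out 1 library, Dnase2a kept its call in 6 and Acp5 in 5. Of the 10 other alternatives, Dnase2a kept its call in 6 and Acp5 in 5. Over all alternatives the adjusted p from limma was up to 0.110 for Dnase2a and 0.142 for Acp5. With LPS, 8 rose (15.4%, against 13.0% of all genes) and 25 fell (48.1%, against 35.5%) in silenced cells. In control cells 11 rose (21.2%, against 15.3% of all genes) and 18 fell (34.6%, against 32.9%). With median-ratio scaling 12 rose and 17 fell in silenced cells (2975 and 2824 of all 13078 genes). With this scaling 14 rose and 15 fell in control cells (3215 and 2852 of all genes). The lowest in control cells were Gnptab, whose enzyme makes the mannose 6-phosphate tag (-1.71), the iduronidase Idua (-1.28) and Fnip2, a partner of folliculin (-1.08). The highest were Acp5 (0.81), Tcirg1, a V0 subunit (0.78), and the cholesterol carrier Npc2 (0.72). Gnptab had 20.01, 13.4 and 12.9 FPKM after LPS in silenced cells, against 53.7, 51.3 and 54.4 without. In control cells Gnptab had 19.1, 22.7 and 13.4 FPKM after LPS, against 61.4, 60.3 and 61.3 without. The LPS libraries lay far below the others in both.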

How the data were processed

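Expression was measured in 12 libraries of RAW264.7 cells, from total RNA in strand-specific libraries per the labels' protocols. The authors deposited FPKM for 53801 gene IDs. HISAT2, StringTie and the build GRCm38 are listed per the submitters' processing notes. Neither the annotation release nor the strand setting is given in the sources used here. Symbols, positions and exon overlaps were read from GENCODE M21, which held 53706 of the IDs, and promoters from RefSeq on GRCm38.p6.

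Groups came from the labels. FPKM plus 1 was put on the log2 scale and fitted in limma 3.58.1 (R 4.3.3) with 1 mean per group, all 12 libraries, 8 residual degrees of freedom and an intensity trend. Genes had to reach 1 FPKM in at least 3 libraries (13078 genes). Tests were 2-sided, Benjamini-Hochberg adjusted over all of these genes, and called at an adjusted p under 0.05. The procedure was tested on simulated data. FPKM do not hold the depth. It was estimated roughly from the steps of low values, and no counting interval is given. Alternatives were a pseudocount of 0.1, no filter, a mean of at least 5 FPKM, a common sum of FPKM, median-ratio scaling, quantile normalization, a replicate block, no trend, estimated depth as a covariate, only the groups compared, and leaving out each library in turn.

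Values in every library are given for the 2 genes with the smallest p in each silencing comparison, up to 6 called genes with the highest and 6 with the lowest fold change with LPS, and Lamp1, Ctsd, Tfeb, Tfe3, Mcoln1 and Atp6v1a. Of the other lysosomal genes, Dnase2a, Acp5 and Gnptab are shown, picked after their values were seen, and 1 gene is not reported here. The genes and lists were chosen with earlier results of these data known.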

Additional observations from a re-analysis of the deposited data

How the results depend on the processing

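The number of the 51 genes called with silencing stayed at 0 without LPS and for the interaction under all alternatives. After LPS it was 1 (Ctsl) when a mean of at least 5 FPKM was required and 0 to 1 when 1 library was left out. With LPS, leaving out 1 library gave 20 to 26 calls in silenced and 16 to 23 in control cells, and the other alternatives gave 22 to 28 and 16 to 27. Median-ratio scaling turned 17 of the 51 log2 fold changes with LPS positive in silenced and 7 in control cells, and quantile normalization turned 5 positive and 3 negative in silenced and 2 positive and 6 negative in control cells. Among genes given by library or called on the deposited scale, median-ratio scaling changed the sign in silenced cells for Lamp1 (0.22), Tfe3 (0.19), Atp6v1c1 (0.0288) and Tpp1 (0.0779), and in control cells for Lamp1 (0.19), Ctsd (0.18) and Smpd1 (0.11). Among the same genes quantile normalization did so for Tfe3 (0.18) and Mcoln1 (0.0368) in silenced and Ctss (-0.0798) and Smpd1 (0.15) in control cells. Mcoln1 in control cells also reversed with a common sum of FPKM (-0.0175) and with depth as a covariate (-0.0914). Leaving out 1 library at a time gave values on both sides of 0 for Tfe3 in silenced cells (-0.1725 to 0.0537) and for Lamp1 (-0.0780 to 0.0015), Ctsd (-0.1912 to 0.0789) and Mcoln1 (-0.10 to 0.0992) in control cells. The cause was not tested.

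Libraries with the same replicate number correlated at -0.0274 to 0.189 in their deviations from the group means, over 0.1 in 3 of 18 pairs. However, 10 of 12 libraries correlated best with one of their own number. Whether the numbers pair libraries is therefore not known here, and the main fit did not use them as pairs. With the replicate block, 0 genes were called with silencing at either time and for the interaction, and with LPS 27 in silenced and 22 in control cells. In silenced cells the block called Mcoln1 lower (-0.25, adjusted p = 0.0436, limma) and ended the call of Atp6v0c (adjusted p = 0.0541, limma). Unknown depth limits most the genes of low FPKM, such as Tfeb and Mcoln1.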
